A study of Mus musculus with 17 samples.

Results

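The proneural basic helix-loop-helix (bHLH) genes examined here are Neurog1, Neurog2, Neurog3, Atoh1, Neurod1, Neurod4, Bhlhe22, Bhlhe23 and Olig2. They are 9 of 22367 protein-coding genes of the mm9 annotation and were chosen by name. H3K27ac HiChIP loops were assigned to them where one end (an anchor) lay no more than 5 kb from a transcription start site (TSS), which gave 269 of 1211657 loops. The acetyl mark H3K27ac lies on promoters and enhancers in use, and HiChIP counts read pairs that join 2 anchors carrying it. Each value below is a number of such read pairs, so it measures contact and mark together and not transcription.

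Mouse embryonic stem cells (mESCs) were grown into embryoid bodies (EBs) by hanging drop and then kept in 0.5 µM retinoic acid (RA) for 4 days (RA-day 4). The bulk group holds 12 libraries of unsorted EB cells. The double positive group, whose labels read cluster2, holds 5 libraries of cells sorted for EpCAM and CD38 at the same day and RA dose, and the study describes 5 separate sorting runs. The comparison asks how contacts in the sorted subpopulation differ from those of the mixture, which itself contains double positive cells. All libraries come from 1 differentiation protocol with no untreated control, so no effect of RA can be read from them. Nothing in the labels says that the bulk libraries came from separate cultures, and p-values then measure only the spread between these libraries. Lower values in a group can come from fewer cells that carry a contact or from less signal per cell, which cannot be told apart here.

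Proneural factors bind DNA as heterodimers with class I bHLH proteins such as Tcf3, Tcf4 and Tcf12, at short sites called E-boxes. Neurogenins start the neuronal programme in dividing progenitors and switch on Neurod genes, which act in young neurons. Id proteins and Hes proteins such as Hes1 hold both back. RA treatment of EBs is a classical route to neural cells, and EpCAM is a surface protein of epithelial cells that neurons largely lack.

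Libraries held between 65148 and 241068 read pairs in bulk and between 50508 and 118179 in the double positive group. Anchors were far fewer in double positive loops, which used 6.98% of all joined anchors. The median gene changed by -0.52 (log2, double positive over bulk) with TMM normalization and by 1.21 with library size alone. For 6 of the bHLH genes the change is also given relative to the median gene. Among the markers of extraembryonic or definitive endoderm, 7 of 16 were higher in the double positive libraries and 1 was lower, and summed levels ran from 2197 to 2695 CPM (read pairs per 1000000 of the TMM-normalized total) against 656 to 1266 CPM in bulk. The sorting markers Epcam and Cd38 had log2 fold changes of 1.05 and 0.65, and neither passed the test (edgeR, adjusted p = 0.107 and 0.195). Among the neural progenitor markers all 6 tested were lower, with summed levels of 221 to 285 CPM against 793 to 1849 CPM in bulk. Of 4 tested markers of pluripotent cells 3 were higher and 1 lower. With TMM 42.8% of all 14115 tested genes were lower and 20.6% higher. Of the 6 lower neural markers 3 had enough read pairs for the test in bulk alone. So had the 1 lower marker of endoderm and the 1 lower marker of pluripotent cells. Being testable in bulk alone favours lower values, so these counts are a description. No read pair was counted for Sox1 or Sox3 of the neural list. Only 7 of the 8 listed neural markers were in the annotation used, so these are not both measured absences. The part of this marker difference in the results below was not tested.

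In bulk the bHLH genes with most contacts were Neurod1, Neurog1 and Bhlhe23. Each had a leading partner region with no TSS of a protein-coding gene within 5 kb. Their promoter sequences and a stretch of the Neurog1 and Bhlhe23 partners are shown because each was the commonest partner of its gene in bulk, with 28.4% (Neurod1), 22.7% (Neurog1) and 32.2% (Bhlhe23) of the gene's read pairs. RefSeq (GRCm38.p6) held promoters of 8 of the 9 genes, all found once in mm9 by exact match, and only bases before every annotated TSS are printed. Capitals mark E-boxes of 3 kinds, searched on both strands. The first is CAGATG, which reads CATCTG on the other strand. The second is CAGCTG and the third CATATG, and these read alike on either strand. From the minus strand, 5′ to 3′, the Neurod1 promoter lies at chr2:79296909-79297043, that of Neurog1 at chr13:56353542-56353791 and that of Bhlhe23 at chr2:180511606-180511855 (mm9).
Neurod1 promoter: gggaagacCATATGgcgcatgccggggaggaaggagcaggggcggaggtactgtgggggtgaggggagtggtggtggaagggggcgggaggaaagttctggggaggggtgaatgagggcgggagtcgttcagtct
Neurog1 promoter: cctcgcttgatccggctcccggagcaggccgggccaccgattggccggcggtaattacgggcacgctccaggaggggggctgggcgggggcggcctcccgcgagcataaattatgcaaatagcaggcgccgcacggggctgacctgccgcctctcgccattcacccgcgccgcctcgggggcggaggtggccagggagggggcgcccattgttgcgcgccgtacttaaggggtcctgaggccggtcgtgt
Bhlhe23 promoter: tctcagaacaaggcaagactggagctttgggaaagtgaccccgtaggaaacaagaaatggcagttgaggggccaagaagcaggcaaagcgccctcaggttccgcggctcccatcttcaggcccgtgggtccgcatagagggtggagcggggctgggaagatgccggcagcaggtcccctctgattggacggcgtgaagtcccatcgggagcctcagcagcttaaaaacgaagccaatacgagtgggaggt

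The Neurod1 promoter held 1 CATATG, and the windows of 250 bases before the RefSeq starts of Neurog1 and Bhlhe23 held none of the 3 motifs. Over 32851 RefSeq promoters, 14.4% held CAGATG in those 250 bases, 13.0% held CAGCTG and 3.46% held CATATG. From the main partners of Neurog1 and Bhlhe23, the stretch of 200 bases with most E-boxes is printed on the plus strand of mm9. Each stretch holds 2 E-boxes, and 65.4% (Neurog1) and 83.4% (Bhlhe23) of anchors of like width have a stretch of 200 bases with as many. The stretch lies at chr13:56323527-56323726 for Neurog1 and at chr2:180490696-180490895 for Bhlhe23.
Neurog1 partner: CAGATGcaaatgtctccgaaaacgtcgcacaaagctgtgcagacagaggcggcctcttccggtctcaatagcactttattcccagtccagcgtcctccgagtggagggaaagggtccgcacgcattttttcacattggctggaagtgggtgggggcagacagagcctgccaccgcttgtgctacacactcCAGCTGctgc
Bhlhe23 partner: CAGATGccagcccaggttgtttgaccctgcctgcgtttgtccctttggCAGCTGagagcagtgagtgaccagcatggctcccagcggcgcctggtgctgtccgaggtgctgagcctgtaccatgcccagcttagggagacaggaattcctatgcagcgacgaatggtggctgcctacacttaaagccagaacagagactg

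The whole Neurod1 partner (3820 bp) held 8 E-boxes of these kinds, the Neurog1 partner (3160 bp) 4 and the Bhlhe23 partner (5449 bp) 13. Of anchors of like width (within 10%), 27.6%, 72.1% and 11.8% held as many. Per kb, the 14 TSS anchors of the bHLH genes held 1.75 E-boxes and all 216081 anchors 1.65.

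Of the 269 loops, 243 had bulk read pairs, 47 had double positive ones and 21 had both, and 183 rested on 1 read pair in all. The loops held 508 of 1616066 bulk read pairs and 88 of 409248 double positive ones. Only 9 of the 14 TSS anchors occurred in any double positive loop, and of 251 partner anchors 82 (32.7%) did. The files do not show whether an anchor outside the double positive loops was offered to the loop caller in those libraries, so a count of 0 at such an anchor is no measured loss. Amplified reads are not independent molecules, and the intervals below cover counting error only.

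All genes but Atoh1 had enough read pairs for the test. With TMM normalization 6 of 8 passed the test with fewer read pairs in the double positive libraries (adjusted p under 0.05, edgeR quasi-likelihood test), and none with more. They were Neurod1, Neurod4, Neurog1, Neurog3, Bhlhe23 and Bhlhe22, of which Bhlhe22 has no anchor in a double positive loop, so that its count of 0 is no measured loss. Over all 14115 genes tested 42.8% were lower and 20.6% higher. Of these 6 genes 5, all but Bhlhe23, reached the filter of 20 read pairs in 5 libraries in bulk alone and not in the double positive libraries, which favours lower values, so the count is a description. The median of the 8 log2 fold changes was -2.09, against -0.52 over all genes. With library size alone 3 genes were lower (Neurod1, Neurod4 and Bhlhe22) and 1, Olig2, was higher, where 26.2% of all genes were lower and 55.3% higher. With TMM all double positive libraries lay below every bulk library for Neurod1, Neurod4 and Neurog1, a pattern that 14.9% of all tested genes had. For Neurod4 and Neurog1 the groups overlapped with library size alone.

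**Figure D1:**
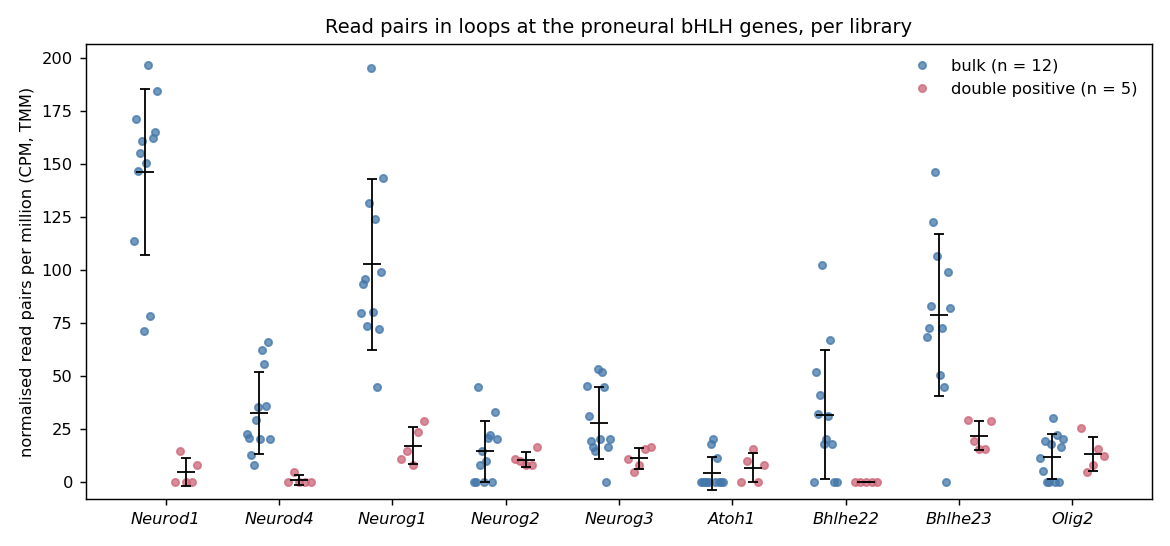
Normalised read pairs (CPM, TMM) in loops at each gene, with 1 point per library, and the mean and SD in black. The 5 double positive libraries lie below all 12 bulk libraries for Neurod1, Neurod4 and Neurog1, and the groups overlap for Neurog2, Neurog3, Atoh1, Bhlhe22, Bhlhe23 and Olig2.

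Neurog1, which specifies cranial sensory neurons, had 110 bulk read pairs in all 12 libraries, from 4 through a median of 8.5 to 18. Sorted cells gave 3, 3, 1, 3 and 7. Neurog1 reached the filter in bulk alone, which favours lower values, so the p of the gene is a description. In CPM the bulk mean was 103 ± 40.3 (SD, n = 12) and the double positive mean 17.2 ± 8.78 (SD, n = 5). With TMM the groups did not overlap, and the log2 fold change was -2.45 ± 0.37 (SE, edgeR adjusted p = 9.20e-07), or -1.93 relative to the median gene. It was -0.73 with library size alone and did not pass the test (adjusted p = 0.0984), while relative to the median gene it was -1.94.

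The TSS anchor of Neurog1 (chr13:56352062-56354588) met its leading partner about 30 kb downstream, at an exon of the lincRNA 4930550C17Rik (chr13:56321329-56324488). This loop had 25 bulk read pairs in 10 libraries, at most 5 in one and a median of 2. Among double positive libraries it had 2, both in replicate 5, and the log2 fold change was -3.40 ± 0.70 (SE, edgeR adjusted p = 5.80e-06). This downstream loop reached the filter in bulk alone, which favours lower values, so its p is a description. A second partner lay upstream in intergenic sequence (chr13:56358828-56363130), in a loop of 7.65 kb with 18 bulk read pairs. There the double positive libraries had 2, 0, 1, 1 and 2, and the log2 fold change was -1.79 ± 0.62 (SE, edgeR adjusted p = 0.00874). Under library size alone it turned to 0.36 (adjusted p = 0.619), while the downstream loop was at -1.48 and lost its call (adjusted p = 0.0873). The short upstream loop was thus the commonest Neurog1 loop in the double positive libraries and the downstream loop the commonest in bulk. The difference between the 2 loops was not tested.

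All 4 loops of the bHLH genes that could be tested were lower, where 22.4% of 5369 tested loops were lower and 38.1% higher, with a median loop at 0.78 (log2). Of these 4 loops 3, all but the upstream Neurog1 loop, reached the filter on low counts in bulk alone, so their being lower was favoured by it. Of their TSS anchors 10 could be tested, and 7 were lower and none higher, where 75.5% of all tested anchors were lower and 10.5% higher. Of the 7 lower anchors 6 reached the filter in bulk alone. The 4 loops are the 2 Neurog1 loops and the leading loops of Neurod1 and Bhlhe23 described below.

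Neurog2, which drives neuron formation in the spinal cord and cortex, had 17 bulk read pairs, between 0 and 7 per library with a median of 1. In the double positive group the counts were 3, 2, 1, 1 and 4. The bulk mean was 14.5 ± 14.4 CPM (SD, n = 12) and the double positive mean 10.6 ± 3.53 CPM (SD, n = 5), with overlapping ranges. The log2 fold change of -0.40 ± 0.64 (SE, edgeR adjusted p = 0.602) did not pass the test. It was 1.26 with library size alone (adjusted p = 0.0741) and it lay at 0.12 relative to the median gene. The double positive libraries put 6 of their 11 read pairs (1, 2, 0, 0 and 3) in a loop of 7.08 kb to an intergenic anchor downstream (chr3:127341659-127345256), where bulk had 3. The commonest bulk loop, of 72.8 kb to an intron of Alpk1, had 5 read pairs in bulk and none in the double positive libraries.

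Neurog3, the determinant of pancreatic endocrine cells, had 32 bulk read pairs, from 0 through a median of 2.5 to 6. In the sorted cells the counts were 3, 1, 1, 2 and 4. Neurog3 reached the filter in bulk alone, which favours lower values, so the p of the gene is a description. The means were 27.8 ± 17.1 CPM (SD, n = 12) and 11.2 ± 4.98 CPM (SD, n = 5), the ranges overlapped, and the log2 fold change was -1.26 ± 0.51 (SE, edgeR adjusted p = 0.0323), or -0.74 relative to the median gene. Its direction turned to 0.43 with library size alone, and the call was lost without bulk replicate 8 or without double positive replicate 1, 2 or 3. Its window also holds TSSs of 2010107G23Rik. The anchor at the Neurog3 TSS itself (chr10:61594554-61596573) had 14 bulk and 11 double positive read pairs and a log2 fold change of -0.01 ± 0.48 (SE, edgeR adjusted p = 0.991). The other anchor of the window, in an intron of 2010107G23Rik, had 19 bulk read pairs and occurred in no double positive loop. Its loop with most bulk read pairs, to a promoter of 2010107G23Rik at 21.9 kb, had 4 in bulk and 1 in the double positive libraries.

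Atoh1, needed for hair cells of the ear and for cerebellar granule neurons, was nearly empty. It had 4 bulk read pairs in 3 libraries, each in a loop of its own. The double positive libraries had 0, 2, 2, 0 and 2, all in 1 loop of 5.96 kb between the 2 anchors of its window (chr6:64676739-64681145 and chr6:64683584-64686215), where bulk had none. In CPM the means were 6.74 ± 6.76 (SD, n = 5) against 4.08 ± 7.65 in bulk (SD, n = 12), with p = 0.500 in an exact two-sided permutation test. The same test gave p = 0.0336 with library size alone. The ranges overlapped, and the pooled ratio of 1.74 had an interval from 0.414 to 8.40.

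Neurod1, which acts in differentiating neurons and in pancreatic islet cells, had the most contacts of the set in bulk. Its 169 bulk read pairs ran from 4 through a median of 10.5 to 33 per library, and the double positive libraries had 0, 3, 0, 0 and 2. The bulk mean was 146 ± 39.2 CPM (SD, n = 12) and the double positive mean 4.57 ± 6.66 CPM (SD, n = 5). The lowest bulk library (71.0 CPM) lay above the highest double positive one (14.7 CPM). The log2 fold change was -4.60 ± 0.45 (SE, edgeR adjusted p = 1.76e-10), at -4.08 relative to the median gene. With library size alone it was -2.98 (edgeR adjusted p = 4.57e-06). Neurod1 reached the filter in bulk alone, which favours lower values, so these p are descriptions.

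Neurod1 has 2 anchors in its window, which also holds a TSS of Cerkl. One spans the TSS (chr2:79292735-79298094). The other lies just upstream at an exon of the lincRNA Gm17325 (chr2:79298883-79301048) and occurred in no double positive loop. Both met the same partner about 77 kb downstream, in an intron of Cerkl (chr2:79217917-79221736). Together these loops held 48 of the 169 bulk read pairs (28.4%), 32 from the TSS anchor and 16 from the upstream one. The loop of the TSS anchor was seen in 10 bulk libraries with a median of 2.5 and a maximum of 6. Of 38970 bulk loops of like span, 7 (0.0180%) had as many read pairs. In the double positive group it had 2 read pairs, both in replicate 2, and the log2 fold change was -3.75 ± 0.66 (SE, edgeR adjusted p = 1.32e-07). The loop reached the filter in bulk alone, which favours lower values, so this p is a description. The remaining 3 double positive read pairs at Neurod1 (1 in replicate 2 and 2 in replicate 5) joined the TSS anchor to a Cerkl promoter 55.9 kb away, where bulk had 2. The 74 bulk loops of Neurod1 reached 63 partners, and the double positive loops 2.

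Neurod4, which acts with other bHLH factors in retina and sensory ganglia, had 33 bulk read pairs, with 1 to 6 in every library and a median of 2. Sorted cells gave 0, 1, 0, 0 and 0. The bulk mean was 32.5 ± 19.3 CPM (SD, n = 12), and with TMM no double positive library reached the lowest bulk value of 8.18 CPM. The pooled ratio of double positive to bulk (TMM scale) was 0.0352, with a 95% counting interval from 0.000866 to 0.211. The edgeR adjusted p was 2.72e-05. Neurod4 reached the filter in bulk alone, which favours lower values, so this p is a description. Its commonest loop, of 37.3 kb to intergenic sequence downstream, had 8 read pairs, 1 in each of 8 bulk libraries. The only double positive read pair joined a promoter 1372 kb away.

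**Figure D2:**
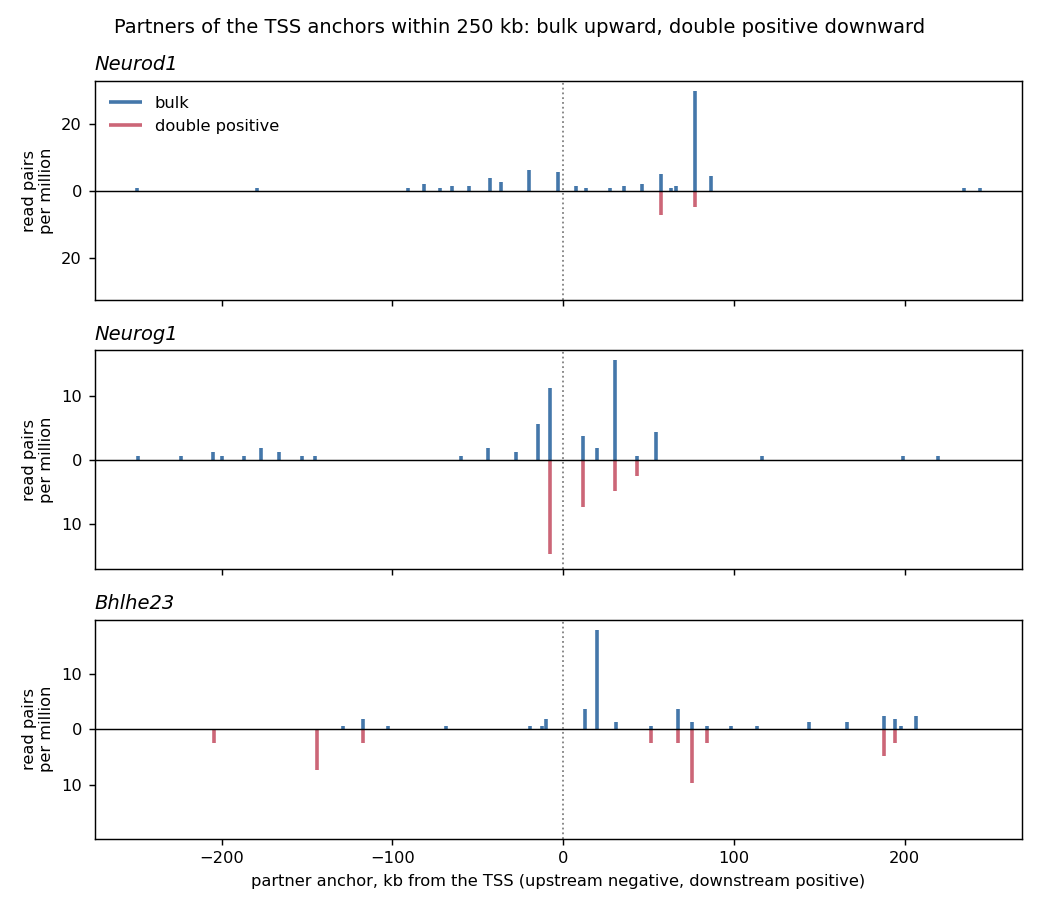
Read pairs per 1000000 of the pooled library totals at each partner anchor, against the distance in kb of the partner from the TSS, for Neurod1, Neurog1 and Bhlhe23. Bulk is drawn upward and double positive downward. The tallest bulk bars, at 77 kb, 31 kb and 20 kb downstream, have no double positive bar of like height.

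Bhlhe22, Bhlhe23 and Olig2 belong to a related branch that mostly represses transcription. Bhlhe22, known from dorsal horn and cortical neurons, had 40 bulk read pairs in 9 libraries, between 0 and 10 with a median of 2.5. The double positive libraries had none, and neither of its anchors occurred in a double positive loop, so no fold is given. Its bulk contacts were long: the median span was 542 kb and 80.0% of read pairs spanned over 100 kb, against 54.2% over all loops at protein-coding TSSs. Its commonest loop, between its own 2 anchors, had 3 read pairs.

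Bhlhe23, a regulator of rod bipolar cells in the retina, had 90 bulk read pairs, from 0 through a median of 6 to 15. Sorted cells gave 8, 4, 2, 2 and 7. The means were 79.0 ± 38.2 CPM (SD, n = 12) and 21.8 ± 6.74 CPM (SD, n = 5), and the double positive libraries lay below 11 of the 12 bulk libraries. The log2 fold change was -1.74 ± 0.39 (SE, edgeR adjusted p = 0.000214), at -1.22 relative to the median gene, and -0.02 with library size alone (adjusted p = 0.969).

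Bhlhe23 lies on chromosome 2 beyond 150 Mb, a segment with an excess of bulk read pairs. The segment took 5.27% ± 0.937 of read pairs in bulk (SD, n = 12) and 2.24% ± 0.0605 in the double positive group (SD, n = 5), with p = 0.000323 in an exact two-sided permutation test. Counted per 1000 read pairs of the segment, Bhlhe23 had 2.32 ± 0.636 in the double positive libraries and 1.07 ± 0.497 in bulk (exact permutation p = 0.000970). This share rests on raw counts, and with library size alone the median gene of the genome was already at 1.21 (log2). Whether the share rose more for Bhlhe23 than for other genes of the segment was not tested. In a fit of the genes of this segment alone the log2 fold change of Bhlhe23 was -0.12 (edgeR adjusted p = 0.790). The lower level of Bhlhe23 in the double positive libraries was thus called with TMM over all genes and not in the fit of its own segment. The part of the segment in the genome-wide difference was not tested further.

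**Figure D3:**
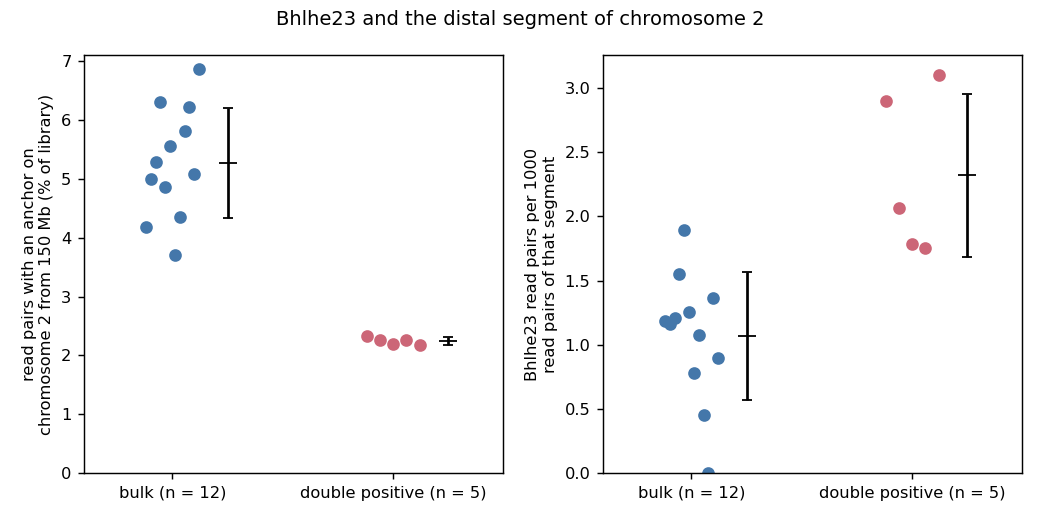
Left, read pairs with an anchor on chromosome 2 from 150 Mb as a percentage of each library. Right, Bhlhe23 read pairs per 1000 read pairs of that segment, with 1 point per library and the mean and SD beside them. The double positive libraries lie below every bulk library on the left, and 3 of them lie above every bulk library on the right.

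The leading Bhlhe23 partner was not the same in the groups. Its leading bulk loop, of 21.0 kb to intergenic sequence downstream (chr2:180489218-180494666, the partner printed above), had 29 read pairs in 10 libraries, with a median of 2 and a maximum of 7. No double positive library had one, although both anchors occurred in other double positive loops. The loop reached the filter in bulk alone and had no double positive read pair, so no p is given. Against a floor of 3 read pairs over the group the loop was at least 8.31-fold lower with TMM and at least 2.45-fold lower with library size alone. Against the read pairs of its own segment (82955 in bulk and 9215 in the double positive libraries) the bound was only 1.07-fold. These bounds take the bulk count as it stands, and the loop was chosen for that count, so they are descriptions. In the double positive libraries 20 of the 23 read pairs (87.0%) joined promoters of other genes, led by Dido1 at 76.7 kb with 2, 1, 0, 1 and 0, where bulk had 2. In bulk 29 of 90 (32.2%) did.

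Olig2, which specifies motor neuron and oligodendrocyte progenitors, had 13 bulk read pairs, with at most 3 in a library and a median of 1. Counts of 7, 1, 1, 2 and 3 were found in the double positive libraries. The means were 11.9 ± 10.6 CPM (SD, n = 12) and 13.3 ± 8.02 CPM (SD, n = 5), with overlapping ranges, and the log2 fold change was 0.24 ± 0.61 (SE, edgeR adjusted p = 0.745). It was 1.92 with library size alone (adjusted p = 0.00525). Relative to the median gene it lay at 0.76 and 0.70 in these fits, and without double positive replicate 1 the TMM value turned to -0.19. The double positive read pairs of Olig2 also went to promoters, 11 of 14. The leading one, of Gcfc1 at 182 kb, had 3, 0, 0, 0 and 1 against 2 in bulk, and that of the related bHLH gene Olig1 at 43.9 kb had 2 against 1. In bulk its commonest partner had 2 read pairs.

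**Figure D4:**
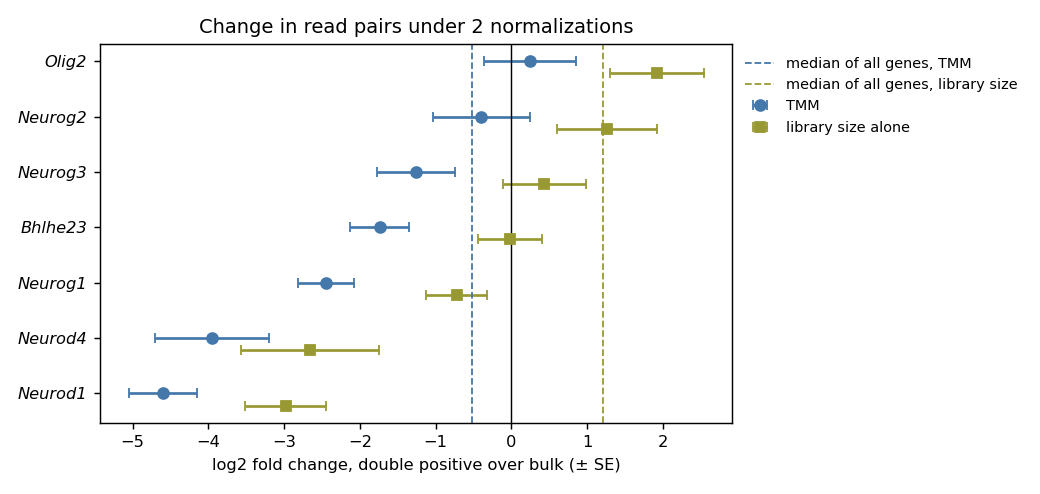
Log2 fold change (double positive over bulk, with SE) of the 7 tested genes that have double positive read pairs, with TMM normalization (circles) and library size alone (squares). Dashed lines mark the median of all tested genes in each fit, -0.52 and 1.21. Neurod1 and Neurod4 lie below zero in both fits, and Olig2 and Neurog2 lie close to or above the median gene.

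Partner type differed between the groups over all genes as well. Over all loops at protein-coding TSSs, 31.4% of bulk read pairs and 73.2% of double positive ones had a TSS near both anchors. This background also counts pairs between anchors of the same gene. For the bHLH genes a partner counted only if it lay near a TSS of another gene. The windows of Neurod1 and Neurog3 also hold TSSs of Cerkl and 2010107G23Rik, and partners near those TSSs are counted. Bhlhe23 (32.2% and 87.0%), Olig2 (23.1% and 78.6%) and Neurog3 (65.6% and 90.9%) had shares above the double positive background, while Neurod1 (25.4% and 60.0%), Neurog1 (13.6% and 29.4%) and Neurog2 (11.8% and 36.4%) lay below the background in both groups. These shares rest on 5 to 23 double positive read pairs a gene and were not tested. The median span over all TSS loops was 123 kb in bulk and 80.7 kb in the double positive libraries. Neurog1 (30.4 kb and 11.5 kb) and Neurod1 (75.6 kb and 55.9 kb) were short in both groups, and Neurog3 (76.2 kb and 453 kb), Bhlhe23 (68.3 kb and 189 kb) and Olig2 (88.3 kb and 164 kb) had longer spans in the double positive libraries than in bulk.

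**Figure D5:**
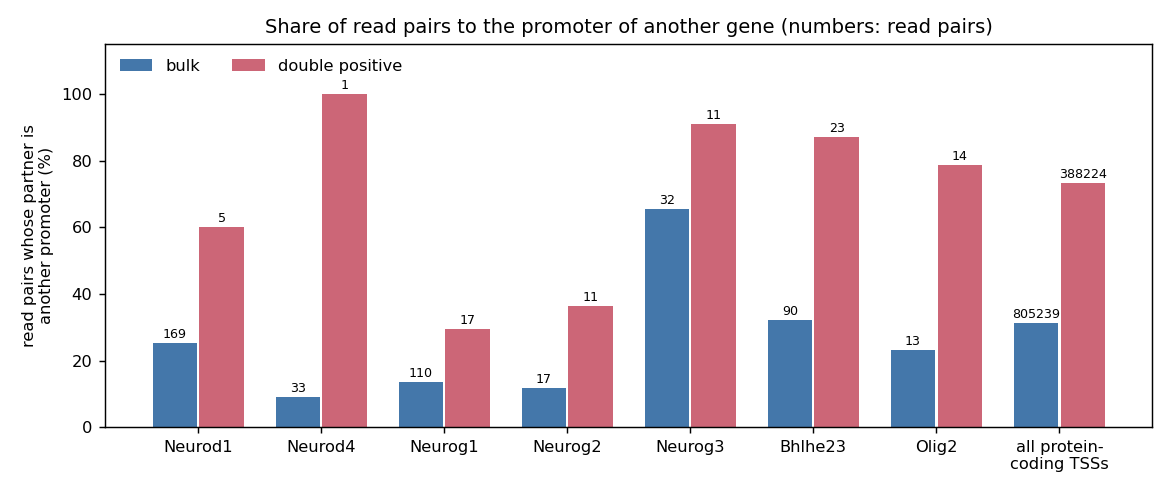
Percentage of read pairs to promoters in bulk and double positive libraries. For 7 genes it counts pairs whose partner anchor lies within 5 kb of the TSS of another gene. For all loops at protein-coding TSSs it counts pairs with both anchors near a TSS, of the same or another gene. The number of read pairs stands above each bar. Neurod1, Neurog1 and Neurog2 lie below the bars of all TSSs in both groups.

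To set the levels of different genes side by side, bulk CPM was divided by the width of the anchors. Neurog1 came first with 40.7 ± 16.0 CPM per kb (SD, n = 12), followed by Neurod1 with 19.4 ± 5.21, and it was higher in 12 of 12 libraries (exact sign-flip permutation p = 0.000488, adjusted p = 0.00391 over 8 neighbour pairs). Bhlhe23 (15.0 ± 7.28 CPM per kb), Neurod4 (7.57 ± 4.50) and Neurog3 (6.97 ± 4.29) came next. Bhlhe22 (6.22 ± 5.99 CPM per kb), Neurog2 (3.63 ± 3.60) and Olig2 (2.20 ± 1.96) followed, and Atoh1 (0.580 ± 1.09) came last. From Neurod1 to Olig2 no neighbours in this order differed beyond their spread, with adjusted p between 0.227 and 0.641. Olig2 was higher than Atoh1 in 8 libraries and tied in 4 (exact permutation p = 0.00781, adjusted p = 0.0313). Without division by width Neurod1 came first and no neighbours differed.

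The genes whose bulk CPM followed each of the top 3 most closely over the 12 bulk libraries were taken from other chromosomes. For Neurod1 they were Srp54a and Srp54b (Pearson r = 0.96 for both, each with 21 bulk read pairs) and Klf15 (r = 0.95). For Neurog1 they were Rcn3 (r = 0.87), Prhoxnb (r = 0.84) and Ube2q2 (r = 0.84). For Bhlhe23 they were Fnbp1l (r = 0.97), Pla2g15 (r = 0.97) and Ddi2 (r = 0.97), and without bulk replicate 10, where Bhlhe23 had no read pair, these fell to 0.60, 0.68 and 0.34. Each is the highest of 12882 or more values over sparse counts that share their libraries, and is given as a description.

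Genes that work with these factors were counted with TMM normalization from lists, to be read against the 42.8% of all tested genes that were lower, the 20.6% that were higher and the median gene at -0.52. Of 12 other neurogenic bHLH genes 8 were tested, of which 5 were lower and 1 was higher, with a median log2 fold change of -3.57, or -2.69 with the 2 genes that had no double positive read pair set at a floor of 3. Of the 5 lower genes 3 reached the filter in bulk alone. Nhlh1, a factor of early neurons, had a log2 fold change of -3.44 ± 0.24 (SE, edgeR adjusted p = 3.86e-14). Nhlh2 had -3.81 ± 0.33 (SE, edgeR adjusted p = 1.14e-11). Olig3, one of those 3, had 23 bulk read pairs and none in the double positive group. The 1 higher gene, Atoh8, had a log2 fold change of 1.23 (edgeR adjusted p = 0.0126), and is named after its value was seen. The summed level of this list ran from 118 to 175 CPM in the double positive libraries and from 678 to 1284 CPM in bulk.

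Of the class I partners, Tcf4 (-3.21 ± 0.36 SE, edgeR adjusted p = 3.14e-09) and Tcf12 (-1.28 ± 0.45 SE, edgeR adjusted p = 0.0134) were lower. Tcf3 was not (0.25 ± 0.28 SE, edgeR adjusted p = 0.438). Tcf4 reached the filter in bulk alone, which favours lower values, so its p is a description. Of 10 tested Id, Hes and Hey genes, not all of which need be inhibitors, 7 were lower and 1 higher. Their median was -1.39, and 4 of the 7 reached the filter in bulk alone. Id2 and Hes6 were among them, so the p of Id2 is a description. Id2 had the largest fall of those named (-4.10 ± 0.37 SE, edgeR adjusted p = 3.03e-11), Hes6 had -2.79 and Id3 -2.02. Hes1, a Notch target that represses proneural genes, was higher at 1.38 ± 0.20 (SE, edgeR adjusted p = 3.16e-07). With 185 bulk and 417 double positive read pairs it moved the opposite way from Hes6.

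Of 19 tested genes known as targets of proneural factors, 13 were lower and 2 higher, with a median of -1.56, and 9 of the 13 reached the filter in bulk alone. Myt1, a zinc finger factor of young neurons, had 611 bulk and 17 double positive read pairs and a log2 fold change of -4.84 ± 0.29 (SE, edgeR adjusted p = 1.11e-15). It lies in the segment of chromosome 2 beyond 150 Mb, and in the fit of that segment alone its log2 fold change was -3.26 (edgeR adjusted p = 1.00e-20). Ebf1 had -4.77 ± 0.41 (SE, edgeR adjusted p = 6.91e-12) and Insm1 -4.52 ± 0.46 (SE, edgeR adjusted p = 2.92e-10). St18, related to Myt1, had 172 bulk read pairs and none in the double positive libraries. The Notch ligands Dll1 (-1.55) and Dll4 (1.26) both passed the test, in opposite directions, and Dll3 (-0.54, edgeR adjusted p = 0.0728) did not. Besides Dll4, Rnd2 was higher (0.86, edgeR adjusted p = 0.00551). These ligands and Rnd2 are named after their values were seen. With library size alone 8 genes of this list were higher and 8 lower, so its balance depends on the normalization. Over all genes 55.3% were then higher and 26.2% lower. Myt1, Ebf1 and Insm1 lay over 4 log2 units below the median gene with TMM. They reached the filter in bulk alone, which favours lower values, so their p are descriptions.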

How the data were processed

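H3K27ac HiChIP was measured in 12 bulk and 5 double positive libraries. Reads were aligned by the authors to mm9 (HiC-Pro), and hichipper gave peaks and loops. The deposited values are counts: for each pair of anchors, the read pairs that join them. They are not normalized, loops without a read pair are not in the files, and depth is the sum of these counts.

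Overlapping anchors of all libraries were joined into 216081 anchors and read pairs were summed per loop, per anchor and per protein-coding gene (anchors within 5 kb of a TSS); 700 read pairs within a joined anchor were dropped. The test needed 20 read pairs in all and 5 libraries with one, and used edgeR 4.0.16 in R 4.3.3 (TMM on total read pairs, quasi-likelihood test, Benjamini-Hochberg adjustment over all features, adjusted p under 0.05), and the tests were tested on simulated data. CPM are read pairs per 1000000 of the normalized total. Orders used log2(CPM per kb + 1). Single values used exact permutation tests (scipy 1.17.1). Intervals are at 95%, and floors are 3 counts.

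The genes and lists were chosen with earlier results of these data known. Named were all 9 genes, for each gene the loops with most bulk and most double positive read pairs, loops passing the test, 3 genes of like pattern for each of the top 3 genes, and up to 4 genes per list with the smallest p. One further gene of a list and one sequence are not reported here. Loops, genes and markers outside this rule are named where a count or check needed them. TMMwsp normalization and a fit of 10 libraries without a block were added after the data were seen. The replicate numbers did not pair the samples (correlations of same-numbered libraries between -0.0143 and 0.0104).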

Additional observations from a re-analysis of the deposited data

Results flagged for a closer look

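Over the 5 double positive libraries, 9 sets of values were checked for a library far from the others, and 1 was found. For continuous values chance alone gives about 1 in 20. Neurod4 had 4.88 CPM in double positive replicate 2, from its only double positive read pair, and 0 in the other libraries. A lone read pair always exceeds the limit of this check, so the flag follows from the count. The 12 bulk libraries are too many for this check.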

How the results depend on the processing

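The values given for Neurod1, Neurod4 and Bhlhe22 kept their direction and call in every alternative in which they could be tested. Each of these genes reached the filter in bulk alone, which favours lower values. Bhlhe22 has no anchor in a double positive loop, so its stable call is no measured loss. Of 220 alternative values of single genes, 202 kept direction and call, 13 lost the call, 1 gained it and 4 changed sign. Under library size alone Neurog2 turned to 1.26, Neurog3 to 0.43 and the upstream Neurog1 loop to 0.36. Leaving out 1 bulk library moved Neurog2 between -0.61 and 0.036 (without bulk replicate 3), and leaving out 1 double positive library moved Olig2 between -0.19 (without replicate 1) and 0.45, and 1 bulk library between 0.071 and 0.457. Neurog3 lost its call with DESeq2 (-1.23), a TSS window of 2.5 kb (-0.21), spans of at least 20 kb (-0.97) and thinning (-1.56).

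With library size alone 3 of 8 bHLH genes were lower and 1 higher, and 2 of 4 loops were lower and 2 TSS anchors higher. A count of 3 lower genes was also found with at least 50 read pairs (3 tested), with thinning (4 tested) and with shared anchors (4 tested), where fewer genes could be tested. Lower TSS anchors numbered 4 with at least 50 read pairs and 3 with shared anchors. No loop had 50 read pairs.

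With the replicate block (10 libraries) 3 of 5 tested bHLH genes were lower, as without the block in those libraries, where the main fit over all 17 libraries had 6. Neurod1 was at -4.72, Neurog1 at -2.48, Bhlhe23 at -2.09, and Neurog3 at -1.28 (edgeR adjusted p = 0.109). With the block 1 loop could be tested and was lower, and 4 TSS anchors were lower.

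Of the other neurogenic bHLH genes, 3 were higher with library size alone and 0 with thinning, with the block, in its 10 libraries without it and with shared anchors. Lower ones numbered 9 with no filter, 3 with the block and in its 10 libraries, and 2 with at least 50 read pairs, thinning and shared anchors. Of the class I partners 1 was higher with library size alone. Lower ones numbered 1 with DESeq2, library size and the block, and 0 with shared anchors, and 1 to 2 when a double positive library was left out. Of the Id, Hes and Hey genes 3 were higher and 2 lower with library size, and 4 were lower with shared anchors. Of the targets 8 were higher and 8 lower with library size, 1 was higher with a TSS window of 10 kb, and 1 was higher and 7 lower with shared anchors. In bulk, 1 neighbour pair differed with a TSS window of 2.5 kb and 0 without division by width. The cause of these changes was not tested. TMMwsp changed no count beyond 1.5 times.

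Depth limits single loops most: 4 of 269 could be tested. Shared anchors leave out, by construction, genes without double positive read pairs.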
